A study of Mus musculus with 4 samples.

Results

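Tenascins, thrombospondins, periostin, fibronectin and fibulins are secreted proteins of the extracellular matrix that shape how cells attach, spread and respond to growth factors. They were examined here as a group of 10 genes, namely Tnc, Tnxb, Thbs1, Thbs2, Thbs3, Thbs4, Postn, Fn1, Fbln1 and Fbln2, of which Tnc is a target that the study followed. Members were the probe sets that the platform annotation assigns to exactly 1 of these symbols, which gave 18 of 45037 probe sets. A further probe set shared by Thbs1 and another gene was left out. The arrays carried 1 probe set for 4 of the genes, 2 for another 4, and 3 for Thbs2 and Fbln1.

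The cells were bronchoalveolar stem cells (BASCs), sorted from lungs of ICR mice aged 4 to 6 weeks as negative for CD31 and CD45 and positive for CD34 and Sca-1, and plated on irradiated embryonic fibroblasts. The sources differ on whether later passages stayed on fibroblasts or moved to collagen-coated dishes. Messenger RNA was measured on 2 arrays of Myc-depleted cells, which carried a lentiviral short hairpin RNA against c-Myc and were selected with puromycin over several generations, and on 2 arrays of control cells. More than 1 hairpin was used in the study, and which of them the arrays carry is not given. The control arrays are called wild type in the study. No source used here says whether the control cells of the arrays received virus or selection, so hairpin, infection and selection cannot be told apart. No source says that replicate arrays stem from separate cultures, and p-values reflect only how far these arrays scatter, possibly for technical reasons.

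Matricellular proteins act mainly as signals in the matrix rather than as its load-bearing fibres. Many are made at high levels during organ formation and wound repair and at low levels in resting tissue. Fibronectin and the fibulins lie nearer to the scaffold, where fibronectin fibrils guide the laying down of other matrix proteins. Myc acts on transcription by pairing with Max and binding E-box sequences, of which CACGTG is the canonical form.

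Promoter windows of 8 of the 10 genes, all but Fn1 and Thbs1, were present in the RefSeq table for mouse build GRCm38.p6. These were 11 windows of 300 bases (250 before and 50 after a transcription start). They were searched on both strands for the canonical E-box CACGTG, the E-box variants CACGCG and CACATG, the TATA box TATAAA and the GC box GGGCGG, and 0 matches overlapped. The pairs of windows of Tnc and of Fbln1 overlap each other, so they share matches. The canonical E-box lay in both windows of Fbln1 and in none of the other 9, against 7.15% of all 32851 windows. The variant CACGCG lay in 1 window, of Tnc (9.27% of all windows), and CACATG in 1, of Tnxb (14.2% of all windows). A TATA box was matched in 4 windows (13.6% of all) and a GC box in 6 (35.7% of all). The 4 windows below are shown because Tnc, Tnxb and Thbs2 stood apart between the groups and Fbln1 holds the canonical E-box. Capitals mark the motifs, which are letter matches and not shown to be bound.
Tnc promoter, chr4:64046887-64047186, minus strand: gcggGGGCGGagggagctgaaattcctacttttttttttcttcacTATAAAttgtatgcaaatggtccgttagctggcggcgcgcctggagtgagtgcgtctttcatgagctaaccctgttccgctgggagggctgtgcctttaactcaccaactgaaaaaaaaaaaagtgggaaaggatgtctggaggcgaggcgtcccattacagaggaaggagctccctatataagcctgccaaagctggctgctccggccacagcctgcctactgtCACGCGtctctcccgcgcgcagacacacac
Tnxb promoter, chr17:34670285-34670584, plus strand: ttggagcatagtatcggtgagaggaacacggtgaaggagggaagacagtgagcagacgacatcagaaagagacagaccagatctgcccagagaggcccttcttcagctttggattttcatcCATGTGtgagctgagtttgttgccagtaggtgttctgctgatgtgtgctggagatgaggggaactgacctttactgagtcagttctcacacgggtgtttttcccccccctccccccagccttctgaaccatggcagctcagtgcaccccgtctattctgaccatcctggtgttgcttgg
Thbs2 promoter, chr17:14694213-14694512, minus strand: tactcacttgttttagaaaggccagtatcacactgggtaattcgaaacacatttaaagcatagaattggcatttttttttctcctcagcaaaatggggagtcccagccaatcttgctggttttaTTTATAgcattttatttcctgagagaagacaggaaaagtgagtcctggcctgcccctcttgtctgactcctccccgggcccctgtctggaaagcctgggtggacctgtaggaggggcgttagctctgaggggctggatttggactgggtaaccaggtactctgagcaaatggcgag
Fbln1 promoter, chr15:85205699-85205998, plus strand: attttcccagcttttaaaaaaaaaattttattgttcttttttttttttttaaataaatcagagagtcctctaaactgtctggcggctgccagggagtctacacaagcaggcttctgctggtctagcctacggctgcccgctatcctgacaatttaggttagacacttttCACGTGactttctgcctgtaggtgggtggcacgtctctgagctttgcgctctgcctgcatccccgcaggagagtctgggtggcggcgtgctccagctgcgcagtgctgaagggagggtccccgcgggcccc

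The Tnc window held the CACGCG variant 21 bases into the transcript. Its TATA match began 205 and its GC box 246 bases before the start. The stretch tatataag, nearer the start, is unmarked because only TATAAA was searched. In Tnxb the CACATG variant, read on the opposite strand, began 129 bases before the start. Thbs2 held a TATA match alone, 126 bases before the start and also on the opposite strand. In Fbln1 the canonical E-box began 81 bases before the start.

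Levels below are deposited log2 values, each of 1 probe set, so a step of 1 is a 2-fold difference, and differences are Myc-depleted minus control. The 4 arrays had near-equal medians, between 5.48 and 5.49. Myc, read by 1 probe set, had 8.35 and 8.50 on the Myc-depleted arrays, against 9.21 and 9.69 on the control arrays, a difference of -1.02 (SE 0.21, adjusted p = 0.362 in limma). Of the markers that define the labelled cell type, Scgb1a1, Sftpc and Cd34 had leading probe sets under the low-value threshold of 5.08 used for testing, with values between 3.66 and 4.75 on all arrays. Ly6a was not analysed here. Of 9 fibroblast and mesenchymal markers, 8 were over that threshold, and their list averaged 10.55 and 10.33 on the Myc-depleted arrays, against 10.35 and 10.48 on the control arrays. Within that list genes lay on both sides, 4 higher and 4 lower. Pdgfra had 11.70 and 11.36 on the Myc-depleted arrays, against 10.31 and 10.29 on the control arrays, and Thy1 had 4.68 and 4.75 on the Myc-depleted arrays, against 6.02 and 5.92 on the control arrays. Neither pair of groups overlapped, and the differences of 1.23 and -1.26 lay near those of Tnc and Tnxb below in size. Both Myc-depleted values of Thy1 lay under the threshold, so the Thy1 difference was measured against background. Dcn and Pdgfrb differed by 0.67 and 0.44, and the pericyte marker Cspg4 by -0.76. Of 8 epithelial markers 3 were over the threshold, namely Krt19, Sftpb and Epcam. Epcam had 7.80 and 7.52 on the Myc-depleted arrays, against 6.89 and 7.12 on the control arrays. Its probe set has the suffix _x_at, for probes that may also match other transcripts. Krt19 and Sftpb differed by 0.58 and 0.035, and for both the groups overlapped. All 5 smooth muscle and pericyte markers were over the threshold, 2 with a higher and 3 with a lower mean in Myc-depleted cells. Besides Cspg4, these were Cnn1 (-0.92), Acta2 (-0.13), Myh11 (0.09) and Des (0.03). The part of cell makeup in the members' differences was not tested, and in bulk RNA fewer cells of a type and less RNA per cell cannot be told apart.

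The arrays also differed in a measure of RNA labelling. The poly-A spike-in transcripts read 3.62 log2 units more at their 3′ than at their 5′ end on array Myc-depleted 1 and 2.05 more on Myc-depleted 2, against 2.15 on control 1 and 3.24 on control 2. Each group thus held 1 array with a high and 1 with a low value. The cells' own actin and Gapdh transcripts split the arrays in the same way. For actin the 3′ minus 5′ difference was 1.95 and 0.69 on Myc-depleted 1 and 2, against 0.60 and 1.36 on control 1 and 2. For Gapdh it was 0.87 and -0.11, against -0.13 and 0.31. Differences within the high arrays (Myc-depleted 1 minus control 2) and within the low arrays (Myc-depleted 2 minus control 1) are therefore given beside the results.

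Of the 18 probe sets, 16 from 9 genes had a mean over the 4 arrays at or above the threshold and were tested. None of the 16 was called at an adjusted p under 0.05 in limma, where 0% of all 27022 tested probe sets were called. Their adjusted p ran from 0.275 to 0.954. An unadjusted p under 0.05 was reached by 5 of 16 (31.2%), against 10.1% of all tested probe sets, and these 5 were 1 of Tnc, 1 of Tnxb and the 3 of Thbs2. Over 2-fold as well, as in the thresholds the study used, stood 2 of 16 (12.5%), against 1.17% of all. Of these, Tnxb was the 1 higher (0.651% of all) and Tnc the 1 lower (0.518% of all). The study had picked Tnc from genes already lower in its array data. Its place in these counts was thus set in advance and is no separate evidence. The study also reported a significant decrease of Tnc by real-time PCR, a measurement not examined here. The groups did not overlap for 8 of 16 probe sets (50%), of which 4 were higher and 4 lower, against 41.1% of all. The median difference of the 16 was -0.205, against -0.00239 over all tested, and the median size of the difference regardless of sign was 0.50, against 0.162.

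**Figure D1:**
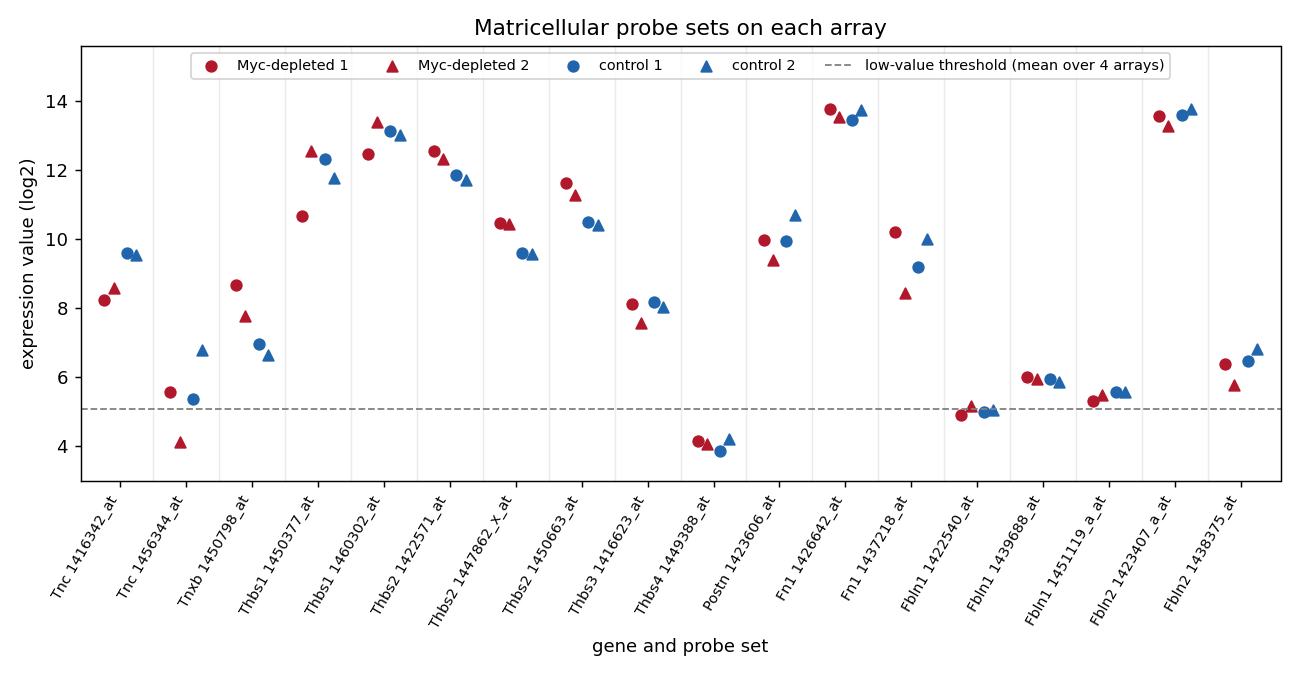
Log2 expression value of each of the 18 probe sets on the 4 arrays (red, Myc-depleted, on the left of each column; blue, control, on the right; circles, replicate 1; triangles, replicate 2), with the low-value threshold of 5.08 as a dashed line. Tnc 1416342_at has both red points below both blue points, Tnxb and the 3 Thbs2 probe sets have them above, and the Thbs4 points lie under the line.

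Tnc encodes tenascin C, a many-armed glycoprotein of developing and healing tissue. Its leading probe set, the one with the highest mean (1416342_at), had 8.24 and 8.57 on the Myc-depleted arrays, against 9.59 and 9.54 on the control arrays. The groups did not overlap, and the gap between them was wider than the gap within either. The difference was -1.16 (SE 0.16, 95% interval -1.60 to -0.71), or 2.23-fold lower in Myc-depleted cells (adjusted p = 0.292 in limma). Between any Myc-depleted array and any control array the difference lay between -1.35 and -0.96.

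The second Tnc probe set (1456344_at) had 5.59 and 4.12 on the Myc-depleted arrays, against 5.39 and 6.79 on the control arrays. Here the groups overlapped, since Myc-depleted 1 lay above control 1, and each group spread widely. The difference was -1.24 (SE 0.73, 95% interval -3.25 to 0.78, adjusted p = 0.656 in limma). The Myc-depleted mean of 4.85 lay under the threshold, as did Myc-depleted 2 itself, so this difference was measured against background. For the leading probe set the difference was -1.30 within the arrays of high spike-in values and -1.02 within those of low values.

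The genes whose leading probe sets ran most like that of Tnc were searched among 12588 others by the distance between centred values over the 4 arrays. The nearest were Ngef (distance 0.111), the glucose transporter gene Slc2a3 (0.125) and Adcyap1r1, a neuropeptide receptor (0.147). Over so few arrays such likeness is a description only.

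Tnxb encodes tenascin X, a tenascin of mature connective tissue that associates with collagen fibrils. It was read by 1 probe set (1450798_at) with 8.68 and 7.77 on the Myc-depleted arrays, against 6.96 and 6.66 on the control arrays. Both Myc-depleted arrays lay above both control arrays, with Myc-depleted 1 well above Myc-depleted 2. The difference was 1.41 (SE 0.36, 95% interval 0.43 to 2.40), or 2.66-fold higher in Myc-depleted cells (adjusted p = 0.395 in limma). It was 2.02 within the arrays of high spike-in values and 0.81 within those of low values. Tnc 1416342_at was thus lower and Tnxb higher on each Myc-depleted array than on each control array, although neither passed the adjusted threshold. In the methods' ANOVA, which does not share variance between probe sets, Tnc also passed the study's thresholds of over 2-fold and an unadjusted p under 0.05, and Tnxb did not.

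Thbs1 and Thbs2 encode the closely related trimeric thrombospondins, which restrain blood vessel growth through CD36 and bind CD47. Thbs2 was higher on both Myc-depleted arrays in all 3 of its probe sets. The leading one (1422571_at) had 12.56 and 12.34 on the Myc-depleted arrays, against 11.87 and 11.73 on the control arrays, a difference of 0.65 (SE 0.14, adjusted p = 0.382). Probe set 1450663_at had 11.62 and 11.27 on the Myc-depleted arrays, against 10.49 and 10.40 on the control arrays. Its difference of 0.9999 (SE 0.17, 95% interval 0.53 to 1.47, adjusted p = 0.336) lay just short of the 2-fold line.

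The third Thbs2 probe set (1447862_x_at, a suffix for probes that may also match other transcripts) had 10.46 and 10.45 on the Myc-depleted arrays, against 9.60 and 9.58 on the control arrays. Its arrays were the most alike within groups, and its difference of 0.86 (SE 0.11, adjusted p = 0.275) had the smallest p of the 16 tested. Over the 3 probe sets, differences ran from 0.84 to 1.22 within the arrays of high spike-in values and from 0.47 to 0.84 within those of low values. The mean of the Thbs2 probe sets gave 0.84 with an adjusted p of 0.0980.

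Thbs1, whose product also activates latent TGF-beta, did not separate the groups. Its leading probe set (1460302_at) had 12.46 and 13.39 on the Myc-depleted arrays, against 13.13 and 13.02 on the control arrays. The second (1450377_at) had 10.67 and 12.56 on the Myc-depleted arrays, against 12.33 and 11.78 on the control arrays. In both, Myc-depleted 1 was the lowest and Myc-depleted 2 the highest of the 4 arrays. The differences were -0.14 (SE 0.35, 95% interval -1.11 to 0.82) and -0.44 (SE 0.70, 95% interval -2.39 to 1.51), with adjusted p of 0.941 and 0.904. They were -0.55 and -1.11 within the arrays of high spike-in values, and 0.26 and 0.22 within those of low values. Without Myc-depleted 1 both turned positive, at 0.32 and 0.50. The part of labelling quality in these values was not tested.

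Thbs3 and Thbs4 encode pentameric thrombospondins, best known from cartilage, tendon and muscle. Thbs3 (1416623_at) had 8.14 and 7.58 on the Myc-depleted arrays, against 8.19 and 8.04 on the control arrays. Only Myc-depleted 2 stood apart, and the difference was -0.25 (SE 0.23, 95% interval -0.89 to 0.38, adjusted p = 0.788). Without Myc-depleted 2 it was 0.02. Thbs4 (1449388_at) had 4.15 and 4.06 on the Myc-depleted arrays, against 3.85 and 4.21 on the control arrays, all under the threshold, and it was not tested.

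**Figure D2:**
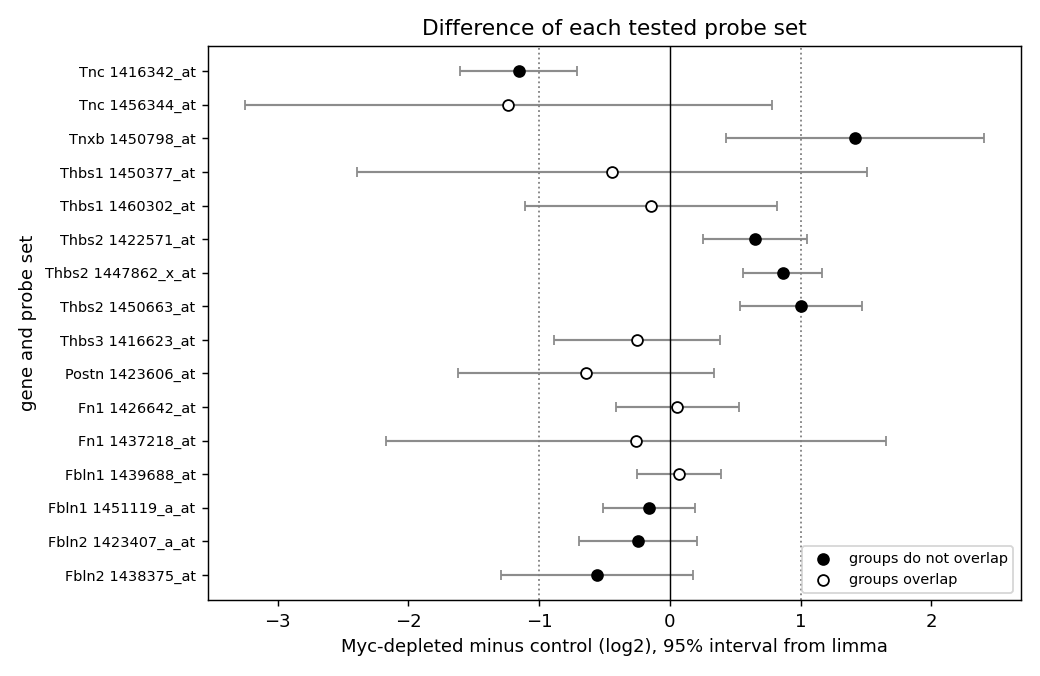
Difference of each of the 16 tested probe sets (Myc-depleted minus control, log2) with its 95% interval from limma, filled where the groups did not overlap, with dotted lines at a 2-fold difference. Tnc 1416342_at at -1.16 and Tnxb at 1.41 lie beyond the dotted lines, as does Tnc 1456344_at with a wide interval, and the 3 Thbs2 probe sets lie between 0.65 and 0.9999.

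Postn encodes periostin, an integrin ligand that promotes collagen cross-linking. Its probe set (1423606_at) had 9.99 and 9.39 on the Myc-depleted arrays, against 9.96 and 10.71 on the control arrays. Myc-depleted 1 and control 1 were nearly level, so the groups overlapped. The difference was -0.64 (SE 0.35, 95% interval -1.62 to 0.34, adjusted p = 0.632 in limma). Within arrays of like spike-in values it was -0.72 (high) and -0.57 (low).

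Fn1 encodes fibronectin, whose fibrils are assembled by the integrin made of the Itga5 and Itgb1 products. The leading probe set (1426642_at) had 13.76 and 13.54 on the Myc-depleted arrays, against 13.44 and 13.74 on the control arrays. The groups overlapped fully, with a difference of 0.06 (SE 0.17, 95% interval -0.42 to 0.53, adjusted p = 0.954).

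The second Fn1 probe set (1437218_at) had 10.21 and 8.45 on the Myc-depleted arrays, against 9.19 and 9.996 on the control arrays. Both arrays of high spike-in values lay above both arrays of low values, whichever the group. The difference was -0.26 (SE 0.69, 95% interval -2.17 to 1.65, adjusted p = 0.947). The 4 arrays spanned 1.75 log2 units here, against 0.32 in the leading probe set. In each of the 6 genes with more than 1 tested probe set, the leading one had the narrowest span. It was 1.35 for Tnc, against 2.68 in its second, and 0.93 for Thbs1, against 1.89 in its second. This span includes the difference between groups, and the Thbs2 probe set most alike within groups was not the leading one.

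Fbln2 encodes fibulin 2, which links basement membranes, fibronectin and elastic fibres. Its leading probe set (1423407_a_at) had 13.58 and 13.29 on the Myc-depleted arrays, against 13.59 and 13.77 on the control arrays. The groups did not overlap but nearly touched, with Myc-depleted 1 only just under control 1. The second (1438375_at) had 6.38 and 5.79 on the Myc-depleted arrays, against 6.47 and 6.81 on the control arrays, again with no overlap. The differences were -0.25 (SE 0.16) and -0.56 (SE 0.26), with adjusted p of 0.693 and 0.584, and neither interval excluded 0 (-0.70 to 0.20 and -1.29 to 0.17).

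Fbln1, the gene of fibulin 1, whose searched windows held the canonical E-box, had low values that barely differed. Probe set 1439688_at had 6.00 and 5.95 on the Myc-depleted arrays, against 5.95 and 5.85 on the control arrays, a difference of 0.07 (SE 0.12, adjusted p = 0.907). Probe set 1451119_a_at had 5.32 and 5.50 on the Myc-depleted arrays, against 5.57 and 5.58 on the control arrays, a difference of -0.16 (SE 0.13, adjusted p = 0.750). The remaining one (1422540_at), under the threshold, had 4.91 and 5.16 on the Myc-depleted arrays, against 4.98 and 5.06 on the control arrays.

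**Figure D3:**
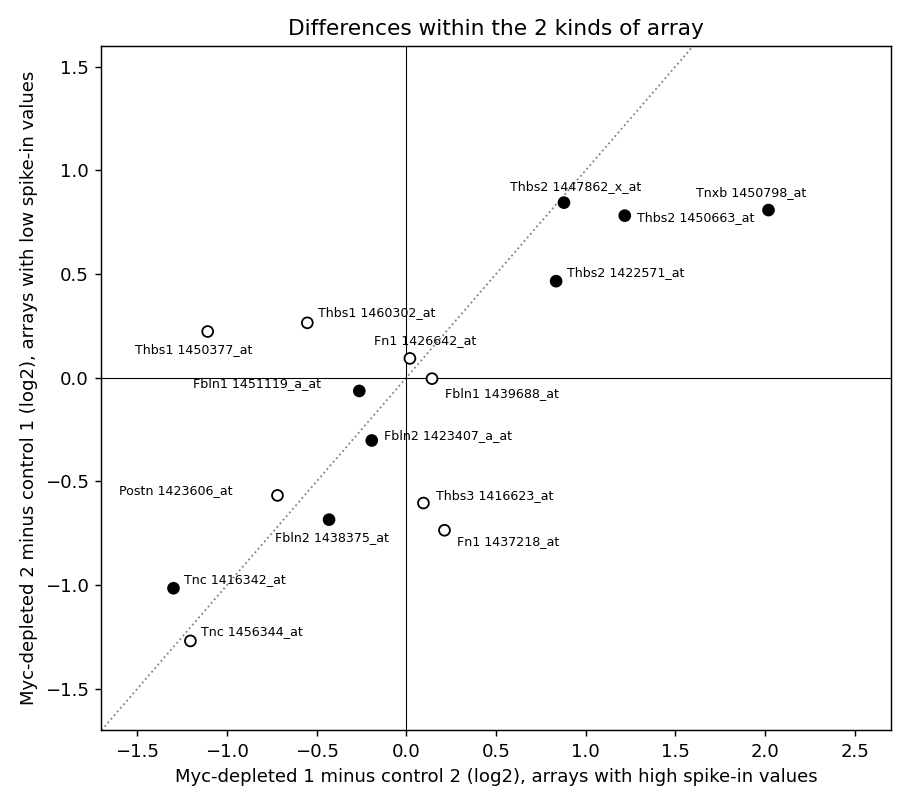
Difference of each tested probe set within the arrays of high spike-in values (Myc-depleted 1 minus control 2, log2, horizontal) and within those of low values (Myc-depleted 2 minus control 1, log2, vertical), filled where the groups did not overlap, with a dotted line of equal differences. Both Tnc probe sets lie at the lower left, at -1.30 and -1.20 on the horizontal axis, Tnxb and Thbs2 lie at the upper right, and both Thbs1 probe sets lie at the upper left.

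Adding the spike-in value of each array to the limma fit as a covariate, a choice made with earlier results of these data known, leaves 1 residual degree of freedom. It called 2819 probe sets, or 10.4% of all tested, and 8 of the 16 members (50%). These 8 were both Tnc probe sets (adjusted p = 0.00677 for each), the 3 of Thbs2 (0.0103 to 0.0311), Tnxb (0.0255), Postn (0.0263) and Fbln2 1438375_at (0.0225). Their differences in that fit, such as -1.13 and -1.39 for Tnc, 1.37 for Tnxb and -0.71 for Postn, kept the direction given above. The same split of the arrays, entered only as high or low, also leaves 1 residual degree of freedom. That fit called 21 of all probe sets and 0 members, so the calls depend on how the split is entered.

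Related genes were taken from lists written with earlier results of these data known, each gene by its leading probe set. Over all 12589 genes so represented, 12.2% had an unadjusted p under 0.05, 0% were called after adjustment, and the median difference was 0.0222. Of the 9 tested members 3 reached that unadjusted p, 2 higher and 1 lower, with a median of -0.144. Of 12 tested matricellular relatives, 6 reached it, 2 higher and 4 lower, with a median of -0.0694. Of 14 elastic fibre and adaptor glycoproteins 2 did, both higher, with a median of 0.152. Of 11 receptors of the members 1 did, Itga5, with a median of 0.0384.

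Among the relatives, Sparcl1, an anti-adhesive relative of Sparc, had 6.77 and 6.59 on the Myc-depleted arrays, against 5.18 and 5.31 on the control arrays, a difference of 1.44 (adjusted p = 0.263). The Ccn family, cysteine-rich growth modulators, had 3 of its genes lower and 1 higher among the 6 that reached that unadjusted p. Ccn4 and Ccn3 differed by -1.21 and -1.23, with second probe sets at -1.12 and -1.18, and Ccn2 by -0.58. Ccn5 differed by 0.75 and Ccn1 by -0.09. Tgfbi, a fasciclin-domain relative of periostin whose transcript responds to TGF-beta, differed by -2.13, with 9.40 and 8.43 on the Myc-depleted arrays, against 10.91 and 11.18 on the control arrays, and its other 3 probe sets differed by between -2.34 and -1.61. Sparc itself differed by -0.05. The leading probe sets of Ccn3, Tgfbi and Ccn1 have the suffix _x_at.

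Of the elastic fibre and adaptor genes, Abi3bp differed by 1.17, Emilin2 by 0.75, Emilin1 by 0.47 and Ltbp3, which holds latent TGF-beta, by 0.39. Among receptors, the fibronectin receptor subunits Itga5 and Itgb1 differed by -0.78 and -0.50, the tenascin C receptor subunit Itga9 by -0.36 and the syndecan Sdc1 by 0.30. For Itga5 the arrays read 7.99 and 7.63 in Myc-depleted cells, against 8.54 and 8.63 in control cells, so the groups did not overlap (adjusted p = 0.382). Its other 3 tested probe sets differed by between -0.77 and -0.14. Those of Itgb1 ran from -0.66 to -0.37, those of Itga9 from -0.54 to -0.06, and those of Sdc1 from -0.14 to 0.50, on both sides of 0. The leading Sdc1 probe set has the suffix _x_at.

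**Figure D4:**
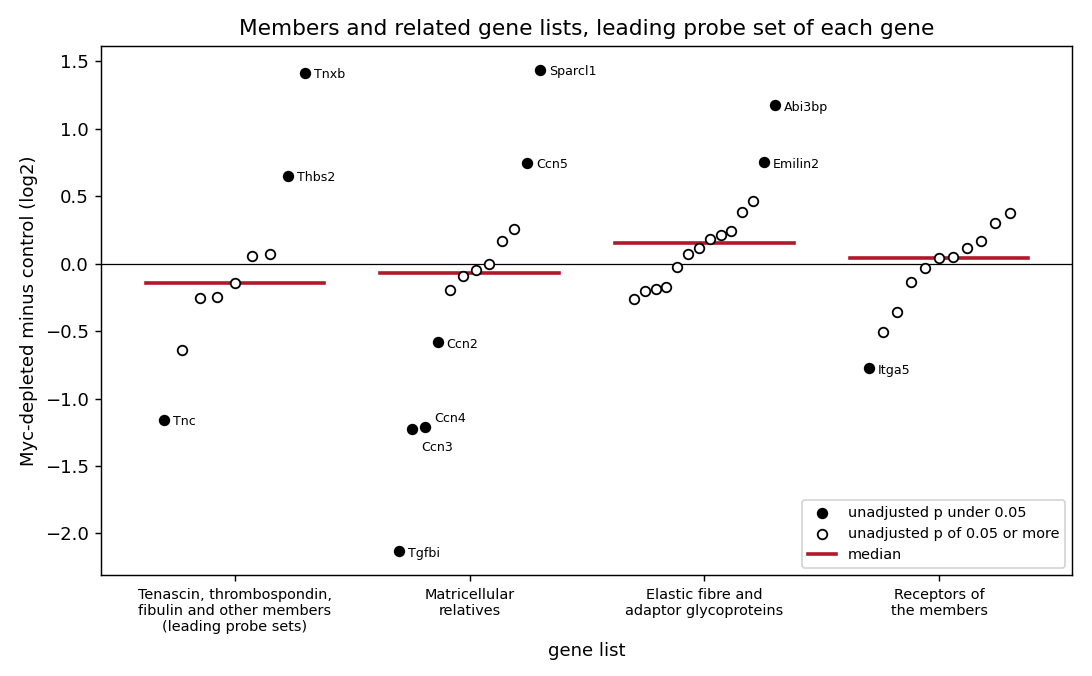
Difference of the leading probe set of each tested gene (Myc-depleted minus control, log2), for the members and 3 lists of related genes, with each list's median as a red line and names for genes with an unadjusted p under 0.05 (filled). Tnxb at 1.41 and Sparcl1 at 1.44 lie highest, and Tgfbi lies lowest at -2.13.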

How the data were processed

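Messenger RNA of 2 Myc-depleted and 2 control BASC samples was measured on single-colour Affymetrix mouse genome arrays. The authors processed their array scans with Partek Genomics Suite 6.4 and deposited log2 expression values per probe set. Their methods name Robust Multichip Average normalization, whereas the submitters' processing notes name GCRMA. Which of them made the values was not settled, which matters most for low values.

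Of 45101 probe sets, 64 controls were left out. Probe sets with a mean over 4 arrays under the 40th percentile (log2 5.08) were not tested, since no source used here gives the study's rule for values near background. For the other 27022, limma 3.58.1 (R 4.3.3) compared the groups with lmFit and eBayes, group as the only factor and two-sided tests, with Benjamini-Hochberg adjustment. There were 2 residual degrees of freedom and a prior of 2.02. The script was tested on simulated data. The number of arrays limits the precision, and an exact permutation test over them could not go below 0.333. Every probe set of the members was named. Of each related list, up to 4 genes with the smallest p were named, and Tgfbi, Sparc, Ccn1, Ccn2 and the cell markers given with values were added after their values were seen. Names came from the platform annotation (34945 probe sets with 1 symbol, 932 with several, 9160 with none). Members and lists were chosen with earlier results of these data known. Alternatives covered filter, scaling, floor, variance model, the methods' ANOVA, replicate block, spike-in covariate, gene means and each array left out.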

Additional observations from a re-analysis of the deposited data

How the results depend on the processing

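With the spike-in covariate 8 member probe sets and 2819 of all probe sets were called at an adjusted p under 0.05. In the other alternatives 0 members were called, and the smallest adjusted p of a member was 0.0980, in the fit of gene means, which called 22 of 12589 genes. The methods' ANOVA gave 1 member (Tnc) over 2-fold with an unadjusted p under 0.05, against 2 in limma, and 207 of all probe sets, against 316. With 1 array left out that count ran from 1 to 4 members and from 290 to 830 of all. Without control replicate 2, Tnc 1416342_at differed by -1.18 and Tnxb by 1.26. Without Myc-depleted replicate 1, Tnc 1416342_at (-0.99) and Tnxb (0.96) both fell short of 2-fold. Over 2-fold there were Tnc 1456344_at (-1.97) and Fn1 1437218_at (-1.14). The remaining Myc-depleted value of Tnc 1456344_at, 4.12, lay under the low-value threshold. Without Myc-depleted replicate 2, the members over 2-fold were Tnc 1416342_at (-1.325), Tnxb (1.87), Thbs2 1450663_at (1.18) and Thbs1 1450377_at (-1.39).

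Of the 16 tested member probe sets, 10 kept their sign in every alternative run. With 1 array left out, the differences crossed 0 for Thbs1 1450377_at (-1.39 to 0.50), Thbs1 1460302_at (-0.61 to 0.32), Thbs3 (-0.53 to 0.022), Fn1 1426642_at (-0.092 to 0.21) and Fn1 1437218_at (-1.14 to 0.62). Others kept their sign but moved by over 1.5 times, namely Tnc 1456344_at (-1.97 to -0.50), Postn (-1.02 to -0.27), Fbln2 1438375_at (-0.85 to -0.26), Fbln2 1423407_a_at (-0.39 to -0.10), Fbln1 1439688_at (0.02 to 0.12) and Fbln1 1451119_a_at (-0.26 to -0.07). The value nearest 0 came without control replicate 2 for Postn and without Myc-depleted replicate 2 for Tnc and Fbln2. The mean of all tested probe sets gave -0.10 for Fn1 and -0.047 for Fbln1, opposite in sign to their leading probe sets. The cause was not tested.

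Same-numbered arrays deviated in opposite directions (correlation -0.77 over 27022 probe sets). Their spike-in values also ran in opposite directions by number, so this correlation cannot show whether the numbers pair the samples. With the replicate block 0 probe sets were called, 2 members and 306 of all stood over 2-fold with an unadjusted p under 0.05, and the blocked difference of Tnc 1416342_at was -1.16 (adjusted p = 1.0). Crossing the numbers, a choice made after seeing the data, groups the arrays by high or low spike-in value. It called 21 probe sets, of which 0 were members.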
